A study of Mus musculus with 8 samples.

Results

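The genes described here are 10 broad markers of monocytes and macrophages, Lyz2, Csf1r, Emr1, Itgam, Cd68, Cd14, Mpeg1, Ms4a6c, Ctss and Spi1, in RNA of sorted mouse regulatory T (Treg) cells with and without the transcription factor Bcl11b. They were taken by symbol from the 23997 genes of the deposited table, and all 10 were found. They are known lineage markers, chosen by their FPKM in the same 8 columns, with the comparison of the groups in view, so the difference of each between the groups is given as a description and supports nothing.

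Treg cells restrain immune responses and are recognised by the factor Foxp3, which sets their identity. All animals were of the C57BL/6 strain and carried Foxp3-YFP-Cre/+, that is, 1 Foxp3 allele from which a YFP-tagged Cre recombinase is made, and at least 1 floxed Bcl11b copy. The deficient group had the genotype Bcl11b f/f and the sufficient group Bcl11b f/+, so the control cells were themselves able to lose 1 copy. Each group held 4 samples of CD4+YFP+ cells from lymph nodes and spleen, with a stated sort purity above 97%, and values were FPKM (fragments per kilobase of transcript, scaled to the fragments sequenced). Because the Foxp3 gene drives the Cre and lies on the X chromosome, a heterozygous animal also has Treg cells that do not make the recombinase, and deletion is not directed at macrophages. The labels give neither age nor sex, nor whether animals were pooled, though a heterozygous genotype at an X-linked gene implies females.

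Monocytes leave the bone marrow for the blood and can become macrophages in tissues, while many tissue macrophages, including those of the splenic red pulp, descend from embryonic precursors. Both cell types depend on the growth factor receptor encoded by Csf1r and on PU.1, the ETS family transcription factor encoded by Spi1, and both carry surface proteins and lysosomal enzymes that serve uptake and digestion of particles. Several of these genes are not exclusive to the lineage, since lymphocytes also make some lysosomal proteases and members of the membrane-spanning 4-domain family.

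In all, 3 pairs of columns of 1 group differed by little more than the sampling of reads, with a spread of log ratios 1.08 to 1.26 times the sampling noise, against 2.28 to 2.82 times for the other 9 pairs within a group. Replicates 1 and 3 of both groups and deficient replicates 2 and 4 were therefore averaged in pairs, each counted as 1 library, which left 2 deficient and 3 sufficient libraries. The deficient library of replicates 1 and 3 is called the first, and that of replicates 2 and 4 the second. Estimated depth ran from about 2680000 to 11830000 fragments per column. Bcl11b was at 18.7 to 24.6 FPKM in the 4 deficient and at 39.1 to 46.5 FPKM in the 4 sufficient columns, so its RNA was still listed in the deficient cells. Cd3e was at 244.7 or more FPKM and Foxp3 at 148 or more in every column, so all 8 held the RNA of Treg cells.

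Promoter sequences of 6 of the genes were in the RefSeq table used here, on the GRCm38.p6 build: Lyz2, Itgam, Cd68, Mpeg1, Ms4a6c and Ctss. They are shown because these genes differ in how they moved, with Lyz2, Itgam, Cd68 and Mpeg1 higher in the deficient libraries and Ms4a6c and Ctss at like levels in both groups. Each runs 5′ to 3′ on the strand of its gene and ends at the RefSeq start or, for Lyz2 and Ms4a6c, 49 and 2 bases before it. Capitals mark the letters GAGGAA or AGGAAG, short forms of the core that PU.1-type ETS factors bind, on either strand. The 2 forms share 5 letters, so a site such as GAGGAAG holds both.
Lyz2, chr10:117282322-117282522, minus strand: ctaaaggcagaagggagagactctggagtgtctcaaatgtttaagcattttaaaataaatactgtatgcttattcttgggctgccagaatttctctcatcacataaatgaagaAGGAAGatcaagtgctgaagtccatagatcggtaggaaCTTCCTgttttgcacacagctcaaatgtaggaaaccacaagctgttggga
Mpeg1, chr19:12460520-12460769, plus strand: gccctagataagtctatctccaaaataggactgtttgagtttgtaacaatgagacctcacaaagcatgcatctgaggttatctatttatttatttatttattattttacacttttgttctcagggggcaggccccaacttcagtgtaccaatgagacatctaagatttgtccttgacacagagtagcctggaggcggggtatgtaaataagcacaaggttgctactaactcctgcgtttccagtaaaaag
Cd68, chr11:69666171-69666420, minus strand: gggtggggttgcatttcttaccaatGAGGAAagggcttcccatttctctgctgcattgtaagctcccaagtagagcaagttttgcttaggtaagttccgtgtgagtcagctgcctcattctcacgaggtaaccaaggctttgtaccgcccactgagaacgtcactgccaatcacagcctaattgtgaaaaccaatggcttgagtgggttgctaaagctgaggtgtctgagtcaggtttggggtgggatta
Itgam, chr7:128062390-128062639, plus strand: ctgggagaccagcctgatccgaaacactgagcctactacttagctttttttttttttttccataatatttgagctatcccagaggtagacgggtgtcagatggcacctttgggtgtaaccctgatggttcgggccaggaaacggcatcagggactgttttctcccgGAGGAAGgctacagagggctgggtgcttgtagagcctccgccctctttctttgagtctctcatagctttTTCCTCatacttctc
Ms4a6c, chr19:11469118-11469365, plus strand: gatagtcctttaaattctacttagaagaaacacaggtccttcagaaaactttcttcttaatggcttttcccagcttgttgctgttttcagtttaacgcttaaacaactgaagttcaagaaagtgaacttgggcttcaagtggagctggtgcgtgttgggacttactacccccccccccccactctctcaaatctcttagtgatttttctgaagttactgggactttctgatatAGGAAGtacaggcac
Ctss, chr3:95526536-95526785, plus strand: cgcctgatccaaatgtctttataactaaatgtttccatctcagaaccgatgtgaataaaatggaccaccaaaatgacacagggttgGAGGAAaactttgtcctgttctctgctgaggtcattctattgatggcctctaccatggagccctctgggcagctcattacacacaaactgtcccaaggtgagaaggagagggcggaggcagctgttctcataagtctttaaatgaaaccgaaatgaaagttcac

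Of these 6 promoters 5 held at least 1 of the ETS forms in the 250 bases before the start, and 39.2% of the 32851 promoters of the RefSeq table did so over the same length. GAGGAA alone was in Cd68, Ctss and Itgam and in 23.3% of all promoters, and AGGAAG alone was in Itgam, Lyz2 and Ms4a6c and in 29.5%. Mpeg1 held neither, which says only that these letters are not in this window. Motifs of 3 other factor families were searched on both strands. TTGCNNAA, a form that C/EBP factors bind, was in Cd68 and in 9.56% of all promoters. TGANTCA, the AP-1 form, was in Cd68 at 2 places and in 6.75% of all promoters. The interferon-stimulated response element was in Ctss, 21 bases before its start, and in 2.98% of all promoters. Both the genes that were higher and those at like levels thus held an ETS form, and a match of letters is no evidence that a factor binds.

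Of the 10 genes 8 were higher in both deficient libraries than in any sufficient library, and Ms4a6c and Ctss overlapped between the groups. The same ordering, every deficient above every sufficient library, held for 18.9% of the 10614 genes tested, those that averaged 1 FPKM or more, and 36.7% were separate in one direction or the other. All 10 genes passed that filter, with Cd14 just inside at a mean of 1.02 FPKM, then Spi1 at 1.42 and Itgam at 2.49. The sufficient means of Cd14, Spi1 and Itgam were 0.565, 0.837 and 0.656 FPKM, so they passed only through the deficient libraries. They are among the 8 genes above, and Itgam is also among the genes called below. Counted over single columns, 6 genes had all 4 deficient columns above all 4 sufficient ones, against 12.5% of genes tested, while Cd14 and Spi1 overlapped. Of the 10, 5 (Lyz2, Emr1, Itgam, Cd68 and Mpeg1) passed an adjusted p of 0.05 in the limma fit of all genes as higher and 0 as lower, where 1.93% of genes tested were called higher and 0.697% lower. Nothing is read from that count and no p is given for these genes, since their choice used this contrast. The median log2 fold change (deficient minus sufficient, on log2(FPKM + 1)) was 1.73 over the 10 genes and -0.01 over all genes tested. In bulk RNA, fewer cells of a type and less RNA per cell cannot be told apart.

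**Figure D1:**
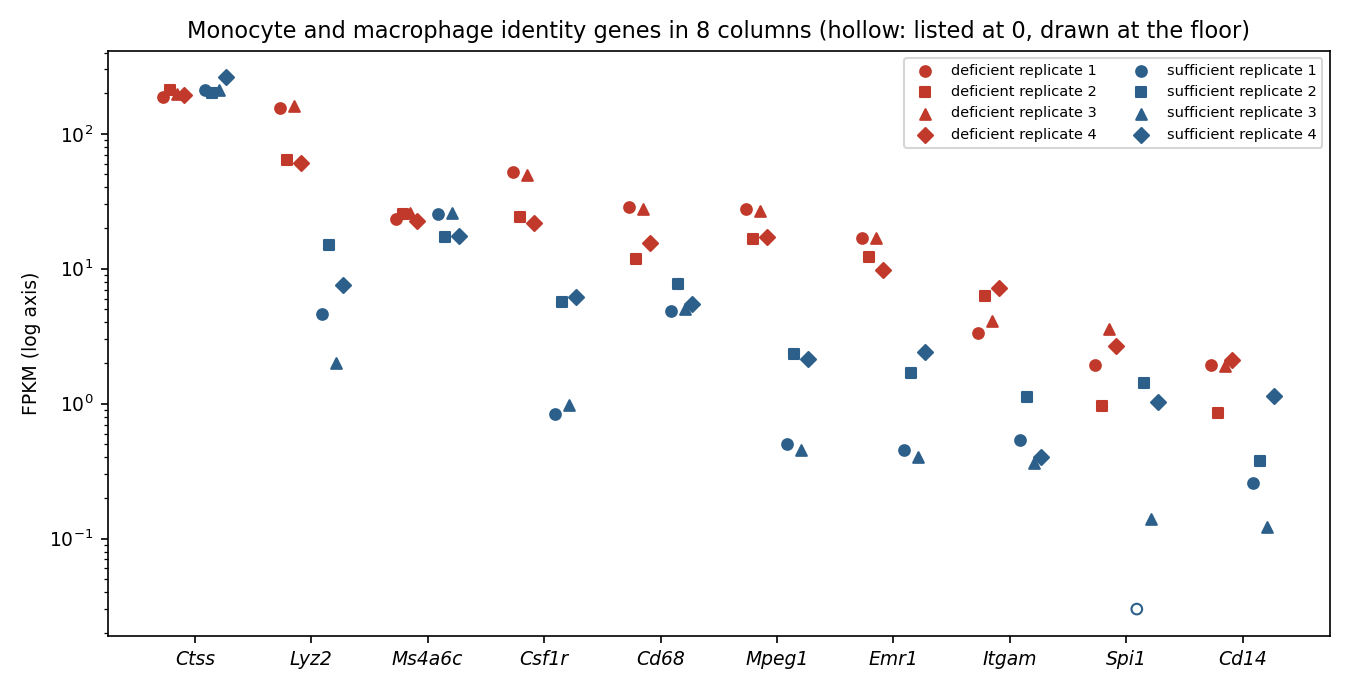
FPKM (log axis) of the 10 genes in the 8 columns, with deficient columns left and sufficient columns right of each gene and 1 marker shape per replicate number; the hollow marker is Spi1 in sufficient replicate 1, listed at 0 and drawn at the floor of the axis. Lyz2, Csf1r, Emr1, Itgam, Cd68 and Mpeg1 have all 4 deficient columns above all 4 sufficient ones, while Ctss lies between 188 and 262 FPKM in all 8.

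Csf1r encodes the receptor for the growth factors CSF1 and IL-34, on which monocytes and macrophages depend. It was at 52.5, 24.3, 49.4 and 21.8 FPKM in deficient replicates 1 to 4 and at 0.843, 5.70, 0.973 and 6.16 FPKM in sufficient replicates 1 to 4. The groups did not overlap, and both held a high and a low library. Means over libraries were 37.0 ± 19.7 (SD, n = 2) and 4.26 ± 2.91 FPKM (SD, n = 3), an 8.68-fold difference (log2 fold change 2.97, SE 0.60). The ligand Csf1 was at 4.11 ± 0.987 and 5.43 ± 1.51 FPKM (limma adjusted p = 0.507), and the other ligand, Il34, was listed at 0 in all 4 deficient columns and in 3 of the sufficient ones. Csf1r lies on the plus strand of chromosome 18, 61100598 to 61132149 (GRCm38), and overlaps Hmgxb3 on the other strand.

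Spi1 encodes PU.1, the transcription factor that directs myeloid development. It was at 1.92, 0.965, 3.59 and 2.68 FPKM in the deficient columns and, in the sufficient ones, was listed at 0 in replicate 1 and at 1.42, 0.139 and 1.02 FPKM in replicates 2 to 4. The highest sufficient column exceeded the lowest deficient one, and the libraries were separate only after averaging, by 1.28-fold between the nearest. These values rest on few fragments, about 7, 4, 50 and 30 in the deficient columns and 0, 10 and 2 in the first 3 sufficient ones. Means were 2.29 ± 0.661 and 0.837 ± 0.695 FPKM (log2 fold change 0.91, SE 0.37), a 2.73-fold difference.

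Emr1 encodes F4/80, an adhesion G protein-coupled receptor used as the surface marker of mouse macrophages, and current annotation names it Adgre1 (chromosome 17, 57358691 to 57483527). It was at 17.0, 12.1, 16.9 and 9.74 FPKM in the deficient and at 0.451, 1.69, 0.399 and 2.40 FPKM in the sufficient columns. All deficient columns lay above all sufficient ones, and the lower deficient library was 4.55 times the highest sufficient one. Means were 13.9 ± 4.26 and 1.505 ± 1.0 FPKM, a 9.26-fold difference (log2 fold change 2.64, SE 0.37).

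Itgam encodes CD11b, the alpha chain that pairs with the beta chain Itgb2 to form the complement receptor of monocytes, macrophages, neutrophils and NK cells. Its level was 3.32, 6.31, 4.12 and 7.17 FPKM in the deficient and 0.540, 1.117, 0.364 and 0.40 FPKM in the sufficient columns. The groups did not overlap, and here the second deficient library, not the first, was the higher one. Means were 5.23 ± 2.14 and 0.656 ± 0.40 FPKM, a 7.97-fold difference (log2 fold change 1.89, SE 0.29). The gene lies at 128062640 to 128118491 on the plus strand of chromosome 7 and overlaps Gm49368 on the same strand, which shares 72.4% of its 50-base stretches and is no row of the table. The partner chain Itgb2, which lymphocytes also use, was at 258.9 ± 2.85 and 269.9 ± 5.99 FPKM (limma adjusted p = 0.805).

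Cd14 encodes the co-receptor that passes bacterial endotoxin to the Toll-like receptor TLR4. It was at 1.93, 0.848, 1.89 and 2.12 FPKM in the deficient and at 0.258, 0.375, 0.122 and 1.13 FPKM in the sufficient columns. Sufficient replicate 4 was above deficient replicate 2, whose value rests on about 4 fragments, and the other sufficient columns were all lower than the deficient ones. Means were 1.70 ± 0.304 and 0.565 ± 0.498 FPKM, a 3.0-fold difference (log2 fold change 0.83, SE 0.30). Its partners in endotoxin sensing were also low, with Tlr4 at 0.632 and 0.291 FPKM, under the filter, and Ly96, the TLR4 co-factor MD-2, at 5.72 ± 0.546 and 4.29 ± 0.841 FPKM (limma adjusted p = 0.351).

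Lyz2 encodes lysozyme M, which cuts bacterial cell walls and is among the most abundant transcripts of macrophages and neutrophils. It was at 154.7, 63.5, 161 and 61.2 FPKM in the deficient and at 4.59, 15.0, 1.99 and 7.60 FPKM in the sufficient columns. The lower deficient library was 4.15 times the highest sufficient one. Means were 110.1 ± 67.5 and 8.64 ± 5.93 FPKM, a 12.7-fold difference (log2 fold change 3.58, SE 0.57). Lyz2 and its neighbour Lyz1, the lysozyme of intestinal Paneth cells, share 15.4% of the 50-base stretches of Lyz2, so reads from one may count for the other. Lyz1 was at 5.25, 0.512, 4.49 and 0.474 FPKM in the deficient columns and listed at 0 in all 4 sufficient ones, with the same 2 columns high as for Lyz2.

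Mpeg1 encodes perforin-2, a pore-forming protein that macrophages use against engulfed bacteria. It was at 27.9, 16.6, 26.8 and 17.1 FPKM in the deficient and at 0.50, 2.34, 0.453 and 2.13 FPKM in the sufficient columns. Of the 10 genes it had the widest gap between groups, the lower deficient library being 7.21 times the highest sufficient one. Means were 22.1 ± 7.43 and 1.65 ± 1.02 FPKM, a 13.4-fold difference (log2 fold change 3.18, SE 0.38).

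Cd68 encodes macrosialin, a heavily glycosylated protein of late endosomes and lysosomes. It was at 28.5, 11.7, 27.7 and 15.4 FPKM in the deficient and at 4.88, 7.67, 5.02 and 5.51 FPKM in the sufficient columns. The groups did not overlap, with 1.77-fold between the nearest libraries. Unlike Lyz2, Csf1r, Emr1 and Mpeg1, it kept a level near 5 FPKM in the sufficient library of replicates 1 and 3, where it was also lowest. Means were 20.8 ± 10.3 and 6.04 ± 1.44 FPKM, a 3.45-fold difference (log2 fold change 1.57, SE 0.30).

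Ctss encodes cathepsin S, a lysosomal protease that trims the invariant chain of MHC class II. It was the most abundant of the 10 genes in both groups, at 188, 209, 196 and 193 FPKM in the deficient and 211, 199, 211 and 262 FPKM in the sufficient columns. The columns of the groups overlapped, and the highest was sufficient replicate 4. Means were 196.7 ± 6.44 and 224 ± 33.3 FPKM (log2 fold change -0.18, SE 0.14), and with the libraries scaled to equal total FPKM the log2 fold change was 0.03. Its gene spans 95526786 to 95556403 of chromosome 3 and contains the pseudogene Hmgb1-ps5.

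Ms4a6c encodes a membrane-spanning 4-domain protein used as a marker of monocytes. It was at 23.4, 25.3, 25.9 and 22.5 FPKM in the deficient and at 25.6, 17.3, 25.6 and 17.6 FPKM in the sufficient columns. The columns of the groups overlapped, and the sufficient library of replicates 1 and 3, lowest for most of the other genes, was the highest of the 5 libraries. Means were 24.3 ± 0.563 and 20.2 ± 4.73 FPKM (log2 fold change 0.28, SE 0.18). The gene shares 6.08% of its 50-base stretches with Ms4a6b, which was at 358.5 and 379.8 FPKM, and 11.3% with any other gene, so part of its value may be reads of relatives, and this was not tested.

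**Figure D2:**
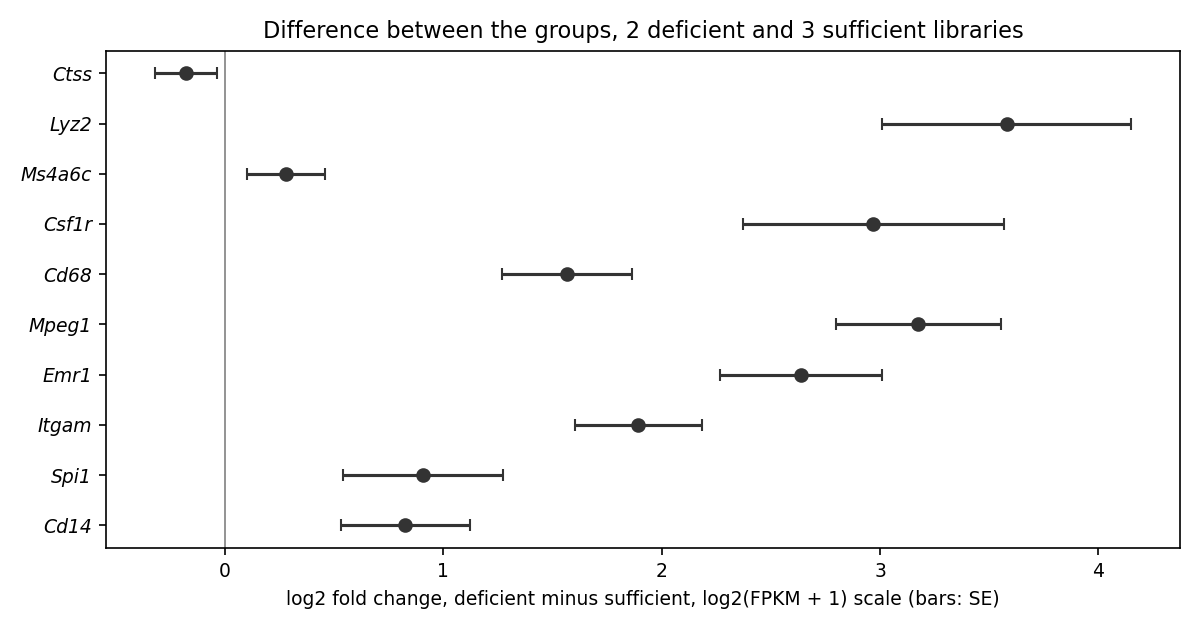
Log2 fold change (deficient minus sufficient, log2(FPKM + 1)) of the 10 genes, points with bars of 1 standard error from the fit of all genes, 2 against 3 libraries. Lyz2 is farthest right at 3.58, Ms4a6c and Ctss lie near 0 at 0.28 and -0.18.

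The order of levels within a group, read on FPKM, which is per length, differed between the groups. In the sufficient libraries Ctss led, followed by Ms4a6c, and then Lyz2, Cd68 and Csf1r at 4.26 to 8.64 FPKM and Mpeg1, Emr1, Spi1, Itgam and Cd14 at 0.565 to 1.65 FPKM. Neighbours among these last 8 differed by less than the larger of their SDs. In the deficient libraries Ctss and Lyz2 led, and Csf1r, Ms4a6c, Mpeg1, Cd68 and Emr1 lay between 13.9 and 37.0 FPKM, neighbours again within the larger SD. Itgam came next, and then Spi1 and Cd14, which did not differ beyond their spread. Without Ctss and Ms4a6c, the other 8 genes summed to 290 and 136.8 FPKM in the first and second deficient library and to 10.8, 35.3 and 26.3 FPKM in the sufficient libraries of replicates 1 and 3, 2, and 4. Both deficient sums were thus above all 3 sufficient ones, among which the library of replicates 1 and 3 stood lowest.

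Within the deficient group the genes did not vary by 1 common factor. The first library was above the second by 2.53-fold for Lyz2, 2.21-fold for Csf1r, 2.07-fold for Cd68, 1.62-fold for Mpeg1, 1.55-fold for Emr1 and 1.51-fold for Spi1. A ratio of at least 1.5 was found for these 6 genes and for 5.53% of genes tested. Cd14 was at 1.29-fold, and Ms4a6c and Ctss were near equality at 1.03 and 0.955. Itgam went the other way, with a ratio of 0.551.

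The near-identical columns give a scale for these ratios, though the labels list them as separate replicates and do not say that they share a library. For Lyz2, Csf1r, Mpeg1 and Emr1 the ratio of replicate 3 over 1 was between 0.941 and 1.04 and that of 4 over 2 between 0.805 and 1.03. All 4 genes thus differed more between the deficient libraries than between the averaged columns of either. For Itgam these ratios were 1.24 and 1.14, and for Cd68 0.975 and 1.32, also smaller than the difference between libraries. For Spi1 they were 1.86 and 2.77, both wider than its ratio of 1.51 between the deficient libraries. For Cd14 they were 0.979 and 2.5. Its ratio of 1.29 between the libraries was thus wider than that of replicates 3 and 1 but narrower than that of 4 and 2.

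**Figure D3:**
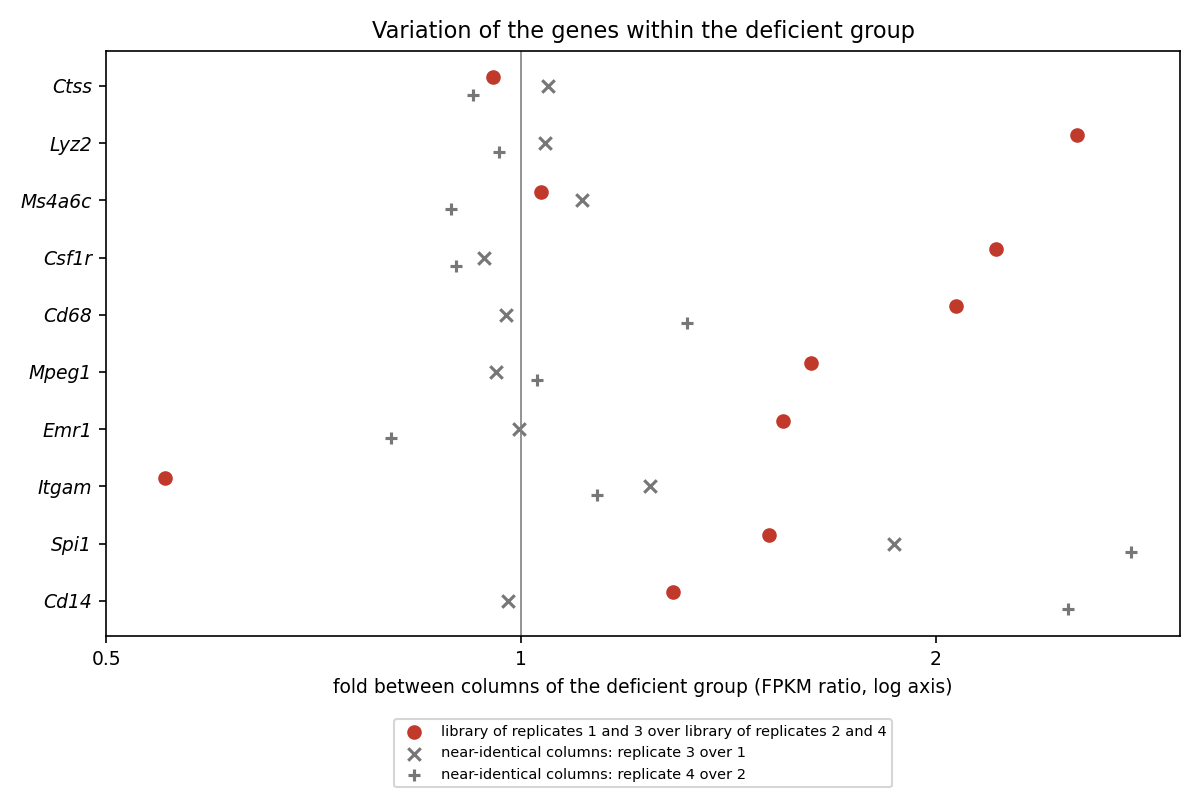
Ratio of FPKM (log axis) between columns of the deficient group for each of the 10 genes: filled circles give the first library over the second, crosses and plus signs the near-identical columns of each library. Lyz2, Csf1r and Cd68 lie right of 2, Itgam lies left at 0.551, and for Spi1 and Cd14 the plus signs lie farther right than the circles.

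Within the sufficient group, 7 of the 10 genes were lowest in the library of replicates 1 and 3, which was the lowest library for 32.3% of genes tested. Replicate 2 was above that library by 6.28-fold for Csf1r, 4.90-fold for Mpeg1, 4.57-fold for Lyz2 and 3.97-fold for Emr1, and replicate 4 by 6.79-fold, 4.46-fold, 2.31-fold and 5.65-fold. Csf1r and Mpeg1 were alike in replicates 2 and 4, with a ratio of 1.08 and 0.910 for 4 over 2. Emr1 and Cd14 were higher in replicate 4, and Lyz2 and Itgam higher in replicate 2, so these 2 libraries differed in the proportions of the genes. Lyz2 in the near-identical columns of replicates 1 and 3 differed by a ratio of 0.433, wider than in either deficient pair for that gene.

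Ratios between genes moved across the libraries as well. Lyz2 was 3.10 and 2.71 times Csf1r in the deficient libraries and 3.62, 2.63 and 1.23 times in the sufficient ones. Cd68 was 0.552 and 0.590 times Csf1r in the deficient libraries and 5.45, 1.34 and 0.894 times in the sufficient ones, with the highest ratio where the other genes were lowest. Itgam was 0.0730 and 0.293 times Csf1r in the deficient libraries, and 0.497, 0.196 and 0.0649 times in the sufficient ones.

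Profiles over the 5 libraries were compared by the root mean square distance of log2(FPKM + 1), each gene centred on its own mean. The closest pairs of the 10 genes were Emr1 with Mpeg1 at 0.30, Csf1r with Mpeg1 at 0.32, Ms4a6c with Ctss at 0.35 and Cd14 with Spi1 at 0.35. Distance to the mean profile of the 10 was from 0.07 to 0.15 for the nearest 10 of 10604 other genes, among them Pilra, Themis2, Pirb, Tgfbi, App, Ptgs1, Itgb5, Cd163 and AF251705. Pilra and Pirb encode paired immunoglobulin-like receptors, and Cd163 the scavenger receptor for haemoglobin and haptoglobin. Pilra, the closest, was at 5.16 and 3.09 FPKM in the deficient libraries and at 0.0792, 0.831 and 0.870 FPKM in the sufficient ones. Cd163 was at 5.30 and 3.12 FPKM in the deficient and at 0.0774, 0.738 and 1.15 FPKM in the sufficient libraries. The 10 genes themselves lay farther off, and 57 other genes were closer to the mean profile than the closest of them. The measure favours genes whose difference is of middle size, since the profile is a mean over genes with differences from -0.18 to 3.58.

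**Figure D4:**
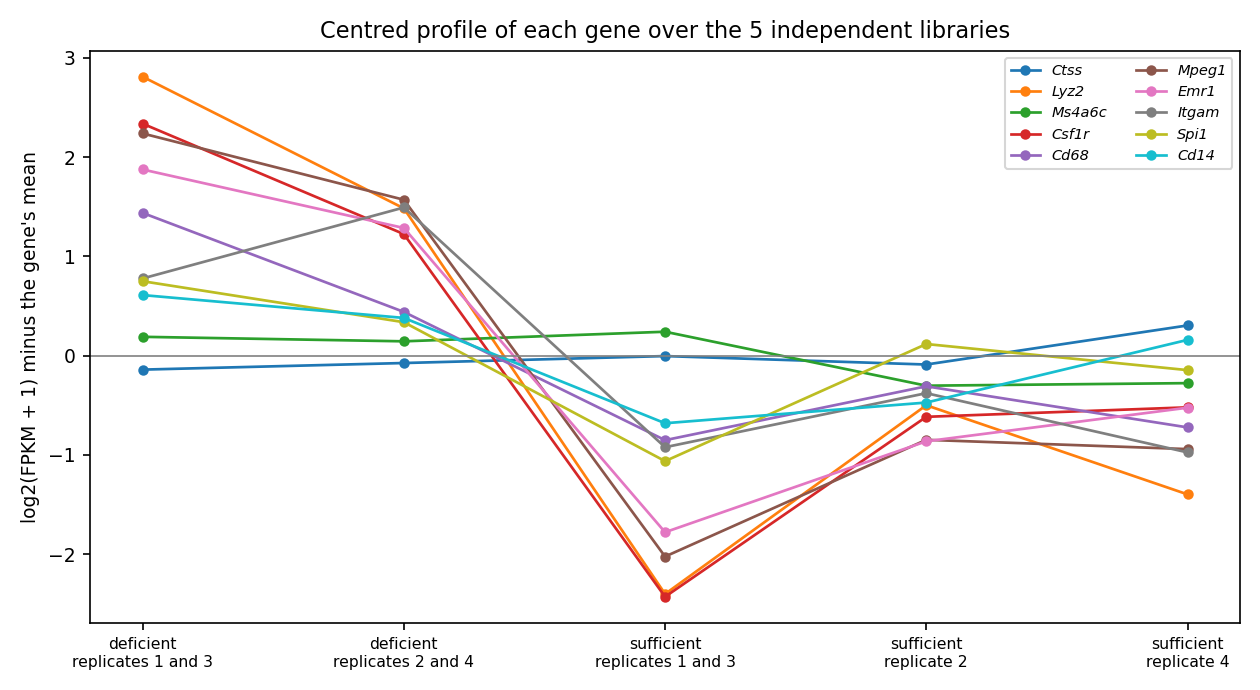
Centred profile, log2(FPKM + 1) minus the gene's mean, of the 10 genes over the 2 deficient and 3 sufficient libraries, 1 line per gene. Lyz2, Csf1r, Mpeg1 and Emr1 are highest in the first deficient library and lowest in the sufficient library of replicates 1 and 3, Itgam alone of the higher genes goes up from the first to the second deficient library, and Ctss and Ms4a6c stay near 0.

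Other genes of the same functions were described from lists in which 20 of 336 genes stand in more than 1 list. Calls in the lists are limma adjusted p-values over all genes tested and, like the 10 genes, the lists were chosen with results known. An unadjusted limma p under 0.05, where counted below, was found for 1891 of the 10614 genes tested, both directions together. Of the 43 different list genes called higher, 18 had a sufficient mean under 1 FPKM and passed the filter only through the deficient libraries, among them Cd180, Ly86, Clec4n and Emr4, so their p-values are no support beyond the values themselves. Among myeloid transcription factors 3 of 19 tested genes rose and 0 fell. Among them were Spic, the factor of red pulp macrophages (8.59 ± 1.05 against 1.34 ± 0.925 FPKM, adjusted p = 0.0319) and Batf3, a dendritic cell factor (adjusted p = 0.0366). The list's median log2 fold change was -0.08, and Egr1, Nr4a1, Stat3 and Id2, its most abundant genes, are also made by T cells and did not pass. Of 10 tested growth factors and receptors, Kit, the stem cell factor receptor, rose from 2.18 to 5.97 FPKM (adjusted p = 0.0347).

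Around the endotoxin receptor, 3 of 16 tested genes rose and 0 fell. Ly86, which encodes MD-1, was at 7.21 ± 0.265 against 0.922 ± 0.577 FPKM (adjusted p = 0.0130), and its partner Cd180 at 2.78 ± 1.34 against 0.169 ± 0.130 FPKM (adjusted p = 0.0354). Tirap, an adaptor of TLR2 and TLR4, was the other (adjusted p = 0.0236), while the adaptor Myd88 was at 45.0 against 42.3 FPKM (adjusted p = 0.716). Of 12 leukocyte integrin genes 0 were called by limma, with 5 at an unadjusted p under 0.05, and Itgad, the alpha chain CD11d, was at 16.4, 9.30, 17.0 and 6.72 FPKM in the deficient and 0.183, 1.77, 0.302 and 2.77 FPKM in the sufficient columns (adjusted p = 0.0535). Its ratio of the first over the second deficient library was 2.09, opposite to that of Itgam.

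Of 29 tested companions of Lyz2, Cd68 and Ctss in the lysosome 2 were called, both higher, and the median log2 fold change was 0.20. Lgmn, the protease legumain, rose from 12.9 ± 1.16 to 26.5 ± 4.11 FPKM (adjusted p = 0.0212) and Ctsc, cathepsin C, by 1.49-fold (adjusted p = 0.0485). Laptm5, Psap, Ctsd and Ctsw, the most abundant of the list, did not pass, with adjusted p from 0.156 to 0.583. Larger differences that did not pass were those of Cd63, a lysosomal tetraspanin (3.94 ± 2.89 against 0.240 ± 0.198 FPKM, adjusted p = 0.0550), Ctsh, cathepsin H (7.47 ± 3.94 against 1.46 ± 1.21 FPKM, adjusted p = 0.123), Grn, progranulin (29.5 ± 11.8 against 12.1 ± 2.92 FPKM, adjusted p = 0.0774), and, in the other direction, Cst7, the protease inhibitor cystatin F (12.9 ± 1.304 against 29.5 ± 8.94 FPKM, adjusted p = 0.0535). In the membrane-spanning 4-domain family 0 of 7 tested genes were called and 0 had an unadjusted p under 0.05, and Ms4a4b, at 575.9 and 532.8 FPKM, and Ms4a6b were far above Ms4a6c in both groups. The 6 genes of the phagocyte oxidase were not called (2 at an unadjusted p under 0.05, both lower), with Cyba at 235.8 ± 9.03 and 292.7 ± 14.5 FPKM (adjusted p = 0.206). Of 6 tested pore-forming and antimicrobial genes, Slpi, a protease inhibitor, and Lgals3, galectin-3, rose (adjusted p = 0.0194 and 0.00885).

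Surface receptors and Fc receptors differed more widely. Of 18 tested adhesion G protein-coupled and macrophage surface receptors 5 rose and 0 fell, with a median log2 fold change of 1.45. Among them were Clec4n, the lectin Dectin-2 (9.44 ± 2.19 against 0.950 ± 0.639 FPKM, adjusted p = 0.0172), Mrc1, the mannose receptor (11.1 ± 4.22 against 1.11 ± 0.851 FPKM, adjusted p = 0.0298), and Emr4, a relative of Emr1 (adjusted p = 0.0356). Of 10 tested Fc receptor and adaptor genes 6 rose, with a median of 1.93. Fcer1g, the common signalling chain of Fc receptors, which NK cells also make, was at 253, 286, 241 and 280 FPKM in the deficient and 0.679, 6.93, 1.28 and 6.41 FPKM in the sufficient columns (adjusted p = 0.00885). Fcgr3, the Fc receptor CD16, was at 23.3, 22.1, 22.4 and 22.0 against 0.578, 1.26, 0.341 and 2.34 FPKM (adjusted p = 0.00836). Both were nearly level between the deficient libraries, at ratios of 0.873 and 1.04 for the first over the second, where Lyz2 was at 2.53. Tyrobp, the signalling adaptor DAP12, was at 1.68.

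Markers of particular cell types were read beside these values, and their part in them was not tested. Of 16 red pulp macrophage genes 6 rose, with a median log2 fold change of 2.62 and of 0.67 for the first over the second deficient library. Examples were Slc40a1, the iron exporter (22.8 against 2.49 FPKM, adjusted p = 0.0341), and Cd5l (14.5 against 1.62 FPKM, adjusted p = 0.0388), while C1qa, at 105, 42.8, 88.1 and 34.9 against 0.745, 11.2, 1.05 and 11.1 FPKM, did not pass (adjusted p = 0.0991). Among 17 tested monocyte genes 6 rose, Lst1, Aif1, Ly6c2 and Treml4 among them, and Ly6c1, which T cells also make, fell from 131.4 to 62.7 FPKM (adjusted p = 0.0390). The median of that list was 0.35. Of 11 tested dendritic cell genes 4 rose, namely Siglech, Batf3, Klrb1f and Ly6d, and the median of that list was 0.65. Cd83, among its most abundant genes, was lower, at 15.8 ± 0.843 against 50.4 ± 27.6 FPKM (limma adjusted p = 0.124). Among B cell genes 1 of 5 rose, and among plasma cell genes 1 of 4. Of 9 MHC class II genes 0 were called higher, 4 of them at an unadjusted p under 0.05, and H2-Ob fell, while the median log2 fold change was 1.06. H2-Aa was at 25.8 ± 7.11 against 5.21 ± 3.57 FPKM (adjusted p = 0.0969), and H2-Ab1, H2-Eb1 and H2-DMb1 were 4.30, 4.75 and 3.30 times as high in the deficient libraries (adjusted p from 0.0592 to 0.146). The remaining tested genes differed less. Cd74, the most abundant, was 1.90 times as high (limma adjusted p = 0.302), and H2-Oa and H2-DMb2 were 1.04 and 1.10 times as high. H2-DMa was lower, at 17.0 against 20.4 FPKM (limma adjusted p = 0.597).

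Summed over their genes, some lists shared with Itgam a higher level in the second deficient library. NK cell genes, of which 5 of 10 tested rose, summed to 85.6 and 138 FPKM in the first and second deficient library and to 21.7, 32.9 and 27.2 FPKM in the sufficient ones. Neutrophil genes, with 0 of 6 tested called, summed to 11.4 and 45.2 FPKM and to 6.31, 48.1 and 9.47 FPKM. S100a8 and S100a9, the most abundant of them, were listed at 0 in sufficient replicates 1 and 3. Mpo, Elane and Prtn3 went against the sum, at ratios of 6.28, 4.19 and 4.19 for the first over the second deficient library. In sufficient replicates 1 and 3 they were at 1.89 and 2.44, 1.35 and 1.49, and 0.845 and 2.10 FPKM. Elane and Prtn3 were under the filter. Erythroid and platelet genes, with 0 of 5 called, summed to 26 and 243 FPKM and to 1.15, 137 and 29.4 FPKM. The globin genes Hba-a1, Hbb-b1 and Hbb-bt were the most abundant, at ratios of 0.106, 0.0831 and 0.124 for the first over the second deficient library. The platelet genes did not share this, with Itga2b at 2.02, Ppbp at 1.27 and Pf4 at 0.802, the last 2 under the filter. In each of these 3 lists, as for Itgam, sufficient replicate 2 was the highest sufficient library. The plasma cell, B cell and membrane-spanning 4-domain lists also summed higher in the second deficient library. Their sums there were 73.3, 25.9 and 1090.3 FPKM, against 49.7, 21.0 and 863 FPKM in the first. In these lists sufficient replicate 4 was the highest sufficient library. The first-library level divided by the second-library level was 0.105 for Igj, 0.748 for Cd79b and 0.722 for Ms4a4b. Derl3 (1.62) and Sdc1 (1.18), Fcrla (2.55), Vpreb3 (1.38) and Bank1 (1.14), and Ms4a7 (3.03), Tmem176a (1.58) and Tmem176b (1.63) went the other way. Derl3, Sdc1, Fcrla, Vpreb3 and Ms4a7 were under the filter. Medians of the log2 ratio over tested genes were -0.30, -0.32 and -0.17. Of 12 stromal and endothelial genes 1 was tested and 0 called. The 12 T cell genes were not called in either direction, with 5 lower and 1 higher at an unadjusted limma p under 0.05. Their median log2 fold change was -0.23. Of 12 Treg genes 7 fell and 0 rose, Tnfrsf4, Lrrc32, Ctla4 and Gpr83 among those that fell.

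Leaving out either deficient library left 1 in that group, assumed to vary like the sufficient ones, and calls over all genes fell from 279 to 16 without the first and 8 without the second. For the lists only the median log2 fold changes are given from these fits, without the first and without the second library in that order. They were 1.71 and 1.91 for the Fc receptor list, 2.31 and 3.0 for red pulp, 0.73 and 0.11 for monocyte and 1.37 and 1.95 for surface receptor genes.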

How the data were processed

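The authors deposited FPKM for 23997 genes in 16 columns, of which 8 matched the samples and 8 matched none and were not used. The submitters' processing notes list, without roles, the mm10 build, STAR 2.5.1, Cuffdiff and Cuffnorm 2.2.1, cutadapt 1.12, Trim Galore 0.4.2 and FastQC. Per the labels' protocols libraries came from a stranded total RNA kit and ran on HiSeq or MiSeq instruments, and no source used here assigns columns to either. Depth, estimated from steps between low values, limits the precision of low genes.

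Columns with a spread of log ratios under 1.5 times sampling noise at 150 to 500 reads were averaged. The form of this check was settled after the columns were seen. For the 10614 genes that averaged 1 FPKM or more, limma 3.58.1 (R 4.3.3) was fitted to log2(FPKM + 1) of the 5 libraries (mean-variance trend, two-sided, Benjamini-Hochberg over all genes tested, threshold 0.05), which understates the change of low genes. The fit was tested on simulated data. The labels do not say that samples came from separate animals, so the spread behind each p-value is that of these libraries and may be technical. SD is over libraries, n = 2 deficient and n = 3 sufficient.

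The members and the 22 lists were chosen with earlier results of these data known. From each list the up to 4 most abundant genes and the up to 4 called genes of lowest adjusted p could be named, and the 10 genes nearest the mean profile. Some genes that this rule names are not reported here. Csf1, Il34, Tlr4, Ly96, Itgad, Lyz1, Ly6c1, Cd63, Ctsh, Grn and Cst7 were named after their values were seen. So were H2-Aa, H2-Ab1, H2-Eb1, H2-DMb1, H2-DMb2, Elane, Prtn3, Itga2b, Ppbp and Pf4. Derl3, Sdc1, Fcrla, Vpreb3, Ms4a7 and Tmem176a were added in the same way. Positions and overlaps are from GENCODE M21 on GRCm38. Alternatives were another pseudocount, other filters and scalings, separate columns, a replicate block, robust moderation and left-out columns.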

Additional observations from a re-analysis of the deposited data

How the results depend on the processing

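In the order genes called higher, genes called lower, and genes of the 10 called higher, the values were 205, 74 and 5. Without a filter on low values they were 91, 8 and 0. An unadjusted limma p under 0.05 was then found for 7 of the 10 and for 2588 of all 17114 genes tested. Nothing is read from that count either. With a filter at 5 FPKM they were 73, 40 and 3 (of 7 tested). With libraries scaled to equal total FPKM they were 341, 30 and 6, the median of all genes moved from -0.01 to 0.18, the share of calls that were higher from 73.5% to 91.9%, and the log2 fold change of Ctss turned to 0.0343. With 8 separate columns they were 1004, 847 and 7, and with a replicate block added to these 776, 642 and 7. A pseudocount of 0.1 gave 124 genes higher and 3 of the 10, and robust moderation 3 of the 10. Leaving out columns or libraries gave 8 to 216 genes higher, 0 to 81 lower and 0 to 6 of the 10. In particular they were 11, 5 and 0 when the first deficient library was left out, 8, 0 and 0 for the second, and 121, 46 and 4 for the averaged sufficient library. They were 65, 15 and 3 for sufficient replicate 2, and 96, 37 and 2 for sufficient replicate 4. The median log2 fold change of the 10, 1.73, was 2.35 with a pseudocount of 0.1. With the filter at 5 FPKM it was 2.64, over 7 genes. It was 1.63 to 2.25 over the left-out columns, with 9 or 10 of the genes tested. Without the first and the second deficient library it was 2.25 and 2.07, over 9 genes each. These medians over fewer genes are not of the same set as 1.73. The cause of these changes was not tested, apart from the fewer genes or libraries that a filter or a left-out column leaves.

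Of the 10 genes, calls were lost in 12 of 19 alternatives by Cd68, in 5 by Lyz2, Emr1 and Itgam and in 3 by Mpeg1, and gained in 5 by Csf1r and in 2 by Cd14. A group left with 1 library was assumed to vary like the other. Apart from Ctss, no fold change of the 10 genes turned its direction. Same-numbered columns of the groups deviated together with a correlation of 0.0293 to 0.126 over 4 pairs, and 6 of 8 columns correlated best with their own number. A weak effect shared by number is thus possible. The main fit did not take the numbers as pairs, and only the fit with a replicate block did. Cd14 and Spi1 rest on at most 50 fragments a column.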
